A study of Mus musculus with 24 samples.

Results

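The 9 genes followed here belong to the extracellular proteolysis system: the matrix metalloproteinases (MMPs) Mmp2, Mmp3, Mmp9, Mmp10, Mmp13 and Mmp14, and the tissue inhibitors of metalloproteinases (TIMPs) Timp1, Timp2 and Timp3. They were given by name, under the theme of AP-1 and glucocorticoid control of proteases and inhibitors, and they are 9 of the 47480 genes in the count table. The RNA came from wild-type mouse embryonic fibroblasts (MEFs), connective tissue cells grown in culture, and was read in 24 stranded mRNA libraries. The cells had received siCTRL or siCop1, with KL001 or DMSO, and either no Dexa or Dexa, which gave 8 groups of 3 libraries. The group siCTRL DMSO without Dexa is the common reference, and each of the other 7 groups differs from it in 1, 2 or all 3 factors. By their names, siCTRL is a control siRNA and siCop1 is directed at Cop1, and Dexa is written as in the labels. The sources used here give no doses, times or siRNA sequences. Whether the 3 libraries of a group came from separate cultures is not stated, so p-values measure the spread between these libraries, which may be technical.

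MMPs are zinc-dependent endopeptidases that cleave collagens, proteoglycans, other matrix proteins and one another. They are made as inactive zymogens, and TIMPs block the active enzymes by binding at the catalytic site. In fibroblasts, transcription of stromelysin and collagenase genes is classically switched on through AP-1, a dimer of Jun and Fos family proteins, and is repressed by glucocorticoids acting through their receptor. Cop1 recruits substrates to a CRL4-type ubiquitin ligase, among them c-Jun and ETS family factors, and KL001 stabilises cryptochromes, the repressors of the circadian clock. The series title concerns a block of the assembly of that ligase by cryptochromes.

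The sequences upstream of Mmp3, Mmp10 and Mmp13 are shown because these 3 genes had the largest differences with siCop1 in DMSO without Dexa and each window holds an AP-1 motif. The window of Mmp14 is shown for contrast, since its level followed that of Mmp3 across the groups and it holds no such motif. Each is the 250 bases before the gene's start in RefSeq (GRCm38.p6, plus strand, 5′ to 3′), with the AP-1 motif TGANTCA in capitals.
Mmp3, chr9:7445572-7445821: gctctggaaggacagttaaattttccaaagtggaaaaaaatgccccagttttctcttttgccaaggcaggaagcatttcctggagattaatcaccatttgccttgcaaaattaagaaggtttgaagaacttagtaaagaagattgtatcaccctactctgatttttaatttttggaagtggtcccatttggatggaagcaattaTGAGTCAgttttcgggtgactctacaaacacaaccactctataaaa
Mmp10, chr9:7502092-7502341: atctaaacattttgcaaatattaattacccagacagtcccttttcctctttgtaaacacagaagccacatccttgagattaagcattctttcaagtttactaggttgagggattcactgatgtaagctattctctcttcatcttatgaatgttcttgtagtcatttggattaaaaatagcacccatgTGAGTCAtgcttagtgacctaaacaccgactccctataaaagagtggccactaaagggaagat
Mmp13, chr9:7272264-7272513: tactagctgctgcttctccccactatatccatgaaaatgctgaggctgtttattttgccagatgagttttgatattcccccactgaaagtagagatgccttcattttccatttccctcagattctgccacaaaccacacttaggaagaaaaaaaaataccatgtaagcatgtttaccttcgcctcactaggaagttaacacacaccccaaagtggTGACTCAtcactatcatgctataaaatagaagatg
Mmp14, chr14:54431348-54431597: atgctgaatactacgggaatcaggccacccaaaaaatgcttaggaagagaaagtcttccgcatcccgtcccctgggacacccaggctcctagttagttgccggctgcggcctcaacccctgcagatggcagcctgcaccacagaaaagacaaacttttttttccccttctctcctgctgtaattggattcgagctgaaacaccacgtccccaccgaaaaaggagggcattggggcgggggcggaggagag

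The AP-1 match began 46 bases before the start in Mmp3 (TGAGTCA), 63 bases before it in Mmp10 (TGAGTCA) and 35 bases before it in Mmp13 (TGACTCA). Each of these windows also had TATAAA on the printed strand, beginning 7, 29 and 16 bases before the start. Among 32851 windows of the same length, 6.75% held TGANTCA on either strand and 7.59% held TATAAA on the given strand. The ETS core AGGAAG, present in 29.5% of all windows on either strand, was found once in Mmp3, at 2 places in Mmp13 and once in Mmp14. The glucocorticoid receptor motif AGAACA, present in 16.1% of windows on either strand, was found in Mmp10 (as TGTTCT on the printed strand, 101 bases before the start). None of the 4 windows held the CRE motif TGACGTCA (1.55% of windows) or the E-box CACGTG (6.02%), both searched on either strand. The Mmp3, Mmp10 and Mmp13 windows had GC contents of 37.6%, 37.2% and 40.4%, the Mmp14 window had 55.2%, and the median over all windows was 52.4%. Of the 9 genes, 7 had a window in the table, and those of Timp1, Timp2 and Timp3 held no TGANTCA. Mmp2 and Mmp9 had no window, so whether they carry the motif is not known here. A match is a description of letters and not of binding. The Mmp3, Mmp10 and Mmp13 windows were printed because of their siCop1 differences and the motif, and the Mmp14 window because it lacks the motif. The matches in these windows, set beside the shares over all windows, are therefore no test of a link with the differences.

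Mmp3, Mmp10 and Mmp13 lie in a row of 10 protein-coding MMP genes on chromosome 9 (GRCm38, 7272514 to 7699585, 427 kb). The other 7 genes of that cluster (Mmp12, Mmp1b, Mmp1a, Mmp8, Mmp27, Mmp20 and Mmp7) had between 2 and 33 counts each over all 24 libraries and were not tested. Mmp9 lies on chromosome 2 (164940780 to 164955850), Mmp2 on chromosome 8 (92827291 to 92853420) and Mmp14 on chromosome 14 (54431612 to 54445364). Timp1 lies on chromosome X (20870166 to 20874735), Timp2 on chromosome 11 (118301069 to 118355740) and Timp3 on chromosome 10 (86300372 to 86349506). In the annotation, Timp1 overlaps Syn1 and Timp3 overlaps Syn3, which had 1127 and 773 counts over all libraries against 68370 for Timp1 and 278416 for Timp3. Whether the counting used strand is not given in the sources used here.

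Library totals ran from 21409988 to 27875023 counts. Rfwd2, the older symbol of Cop1, was at 25.0 to 29.7 CPM (counts scaled to a common library total with TMM factors) in the siCTRL libraries and at 4.33 to 5.79 CPM in the siCop1 libraries. Fkbp5, a glucocorticoid receptor target, was at 33.4 to 52.3 CPM without Dexa and at 583.6 to 726.9 CPM with it. Of 10 fibroblast markers, Col1a1 ran from 14650 to 23502 CPM and Vim from 4448 to 5013 CPM, whereas Dcn (1.55 to 4.58 CPM) and Lum (0.232 to 1.67 CPM) were low in every library. Summed heart-muscle markers (7 genes) were between 13.8 and 70.4 CPM in 6 siCTRL libraries, namely all 3 of siCTRL DMSO and replicate 2 of the other 3 siCTRL groups, and at most 1.44 CPM in the other 18. In siCTRL KL001 replicate 2 that sum was 59.3 CPM, against 0.932 and 1.04 CPM in replicates 1 and 3. The part of these markers in the results was not tested beyond refits that leave libraries out. Where a count of changed genes differed without replicate 2 of the 3 siCTRL groups other than siCTRL DMSO, a choice made after seeing the data, that count is given as well.

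At the reference level, the 9 genes spanned a wide range. Per kilobase of exon, Timp2 stood highest in siCTRL DMSO at 368 CPM per kb, followed by Mmp2 (210), Mmp14 (146), Timp1 (139) and Timp3 (79.1). Mmp3, stromelysin-1, was at 13.7 CPM per kb. The gelatinase Mmp9 (0.464), the collagenase Mmp13 (0.168) and stromelysin-2, Mmp10 (0.0529), were far below. Mmp2, the constitutive gelatinase, and Mmp14, the membrane-bound enzyme that activates it together with Timp2, were thus the most abundant protease transcripts per length among the 6 MMPs. Genes were tested when they passed a filter on low counts, and all 9 did. Mmp10 reached the filter's level of 0.395 CPM in 9 libraries, all of them siCop1, so it was tested only because of the groups in which it was high.

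**Figure D1:**
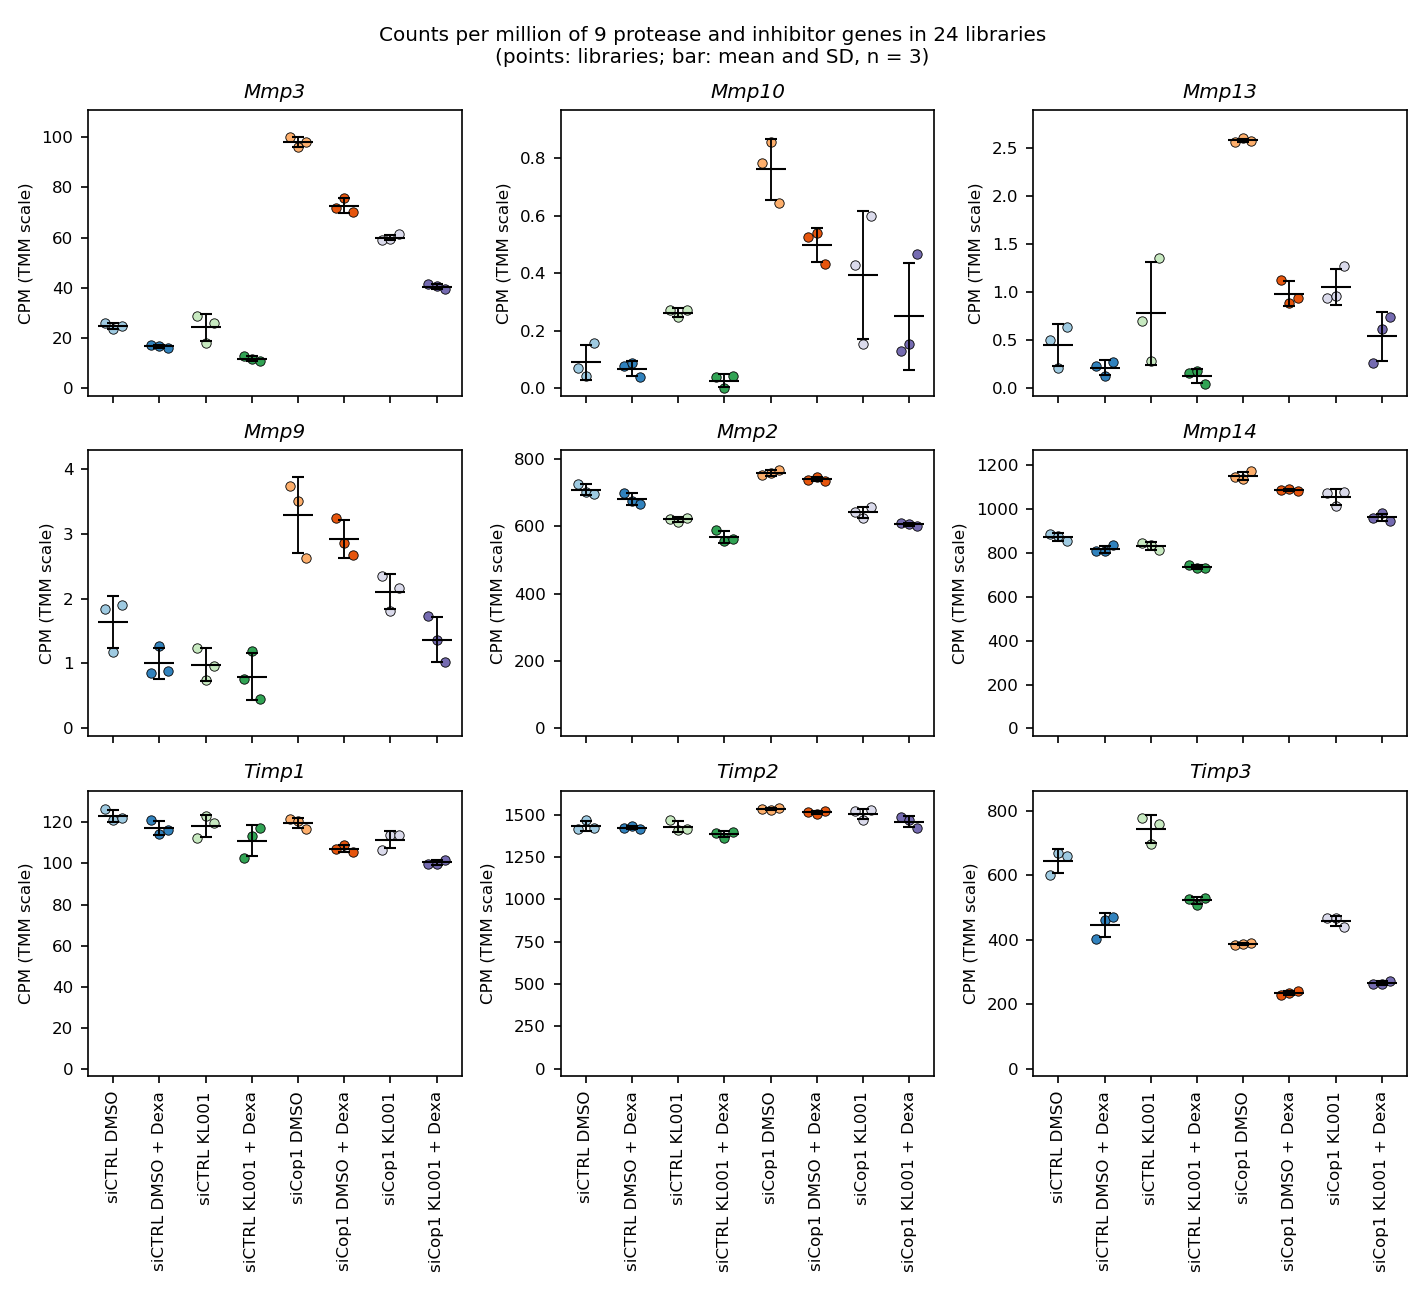
CPM (TMM scale, axes from just below 0) of the 9 genes in each of the 24 libraries (points), with the group mean and SD (bars, n = 3). Mmp3, Mmp10 and Mmp13 have their highest group means in siCop1 DMSO (98.0, 0.761 and 2.59 CPM), and Timp3 has its lowest in siCop1 DMSO with Dexa (234.5 CPM).

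The first comparison asks what the cells' protease and inhibitor transcripts do when Cop1 is reduced. In DMSO without Dexa, 6 of the 8 genes other than Mmp10 were higher with siCop1 (Mmp3, Mmp13, Mmp9, Mmp2, Mmp14 and Timp2), Timp3 was lower, and Timp1 did not pass the test. Mmp10 was higher too, but it entered the test only through its siCop1 libraries, so its siCop1 differences are given as a description and are left out of the siCop1 counts. All statements of change rest on the quasi-likelihood test of edgeR at an adjusted p below 0.05, with p-values adjusted by Benjamini-Hochberg over 14772 genes. In that comparison 29.4% of all genes tested changed, 12.8% upward and 16.6% downward. The median log2 difference of these 8 genes was 0.25, beside -0.01 over all genes. All 3 siCTRL DMSO libraries had raised heart-muscle markers (13.8 to 49.1 CPM, against at most 1.44 CPM in siCop1 DMSO). No refit of this comparison without them could be made, and their part in it was not tested. In bulk RNA, more cells of a kind and more RNA per cell cannot be told apart.

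Mmp3, which degrades proteoglycans and activates other MMPs, was at 26.0, 23.6 and 24.6 CPM in siCTRL DMSO and at 99.9, 96.1 and 98.1 CPM in siCop1 DMSO. The groups were far apart, and the difference was 1.98 log2 (SE 0.085, 3.96-fold, edgeR adjusted p = 5.33e-14). Mmp13, which cleaves fibrillar collagen, was at 0.505, 0.211 and 0.636 CPM against 2.57, 2.60 and 2.58 CPM. Its siCop1 libraries were nearly equal to one another and all above the siCTRL libraries, by 2.51 log2 (SE 0.35, edgeR adjusted p = 2.48e-06). Mmp10 was read 2, 1 and 4 times in siCTRL DMSO and 21, 22 and 16 times in siCop1 DMSO. That is a ratio of 8.35 with a 95% counting interval from 3.81 to 21.7, which covers counting error only. The fitted log2 difference moved from 3.06 to 3.72 without siCTRL DMSO replicate 3. Both Mmp10 and Mmp13 are scarce transcripts, so their fold changes are less precise than that of Mmp3.

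Mmp9 was at 1.84, 1.18 and 1.91 CPM in siCTRL DMSO and at 3.73, 3.50 and 2.62 CPM in siCop1 DMSO, a difference of 0.99 log2 (SE 0.22, edgeR adjusted p = 0.000847). The groups did not overlap. Mmp9 is also made by macrophages and neutrophils. The summed level of 10 markers of those cells ran from 4.73 to 9.99 CPM in the siCTRL libraries and from 7.71 to 18.8 CPM in the siCop1 libraries. Of these 10, 4 passed the filter, and the defining markers Ptprc, Adgre1 and Fcgr1 were at or near 0 (at most 0.247, 0.132 and 0.0411 CPM). The other markers of note were Lyz2 (0.329 to 11.3 CPM over all libraries), Cd14 (1.54 to 3.60), Cd68 (1.83 to 3.45) and Csf1r (0.325 to 1.73). Mmp9 is made by epithelial cells as well. The sum of 9 epithelial markers was 7.30 to 23.3 CPM in siCop1 DMSO and 9.18 to 14.5 CPM in siCTRL DMSO, which overlapped. With Dexa in DMSO, where Mmp9 differed by 1.55 log2, the siCop1 libraries held 17.2 to 50.9 CPM of these markers, above the 5.02 to 10.3 CPM of the siCTRL libraries. The part of either list in the Mmp9 results was not tested.

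The abundant membrane protease Mmp14 was at 886.5, 877.1 and 852.8 CPM in siCTRL DMSO against 1147, 1135 and 1172 CPM in siCop1 DMSO. It was thus 1.32-fold higher with no overlap (log2 0.40, SE 0.026, edgeR adjusted p = 5.67e-13). Mmp2 was 1.07-fold higher, with 726.2, 700.7 and 696.4 CPM against 751.1, 757.0 and 767.1 CPM (log2 0.10, SE 0.027, edgeR adjusted p = 0.00496). The fold differences of Mmp3, Mmp13, Mmp9 and, as a description, Mmp10 were larger than those of Mmp2 and Mmp14, the abundant pair. The reference levels are also the denominators of these fold differences, so a link between level and fold difference was not tested.

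The inhibitors went different ways. Timp3, which is bound to the matrix and also inhibits ADAM family sheddases, was at 600.4, 670.0 and 661.3 CPM in siCTRL DMSO and at 382.4, 387.0 and 389.1 CPM in siCop1 DMSO. All siCop1 libraries were below all siCTRL libraries, by 1.67-fold (log2 -0.74, SE 0.049, edgeR adjusted p = 1.5e-11). Timp2 was at 1416, 1466 and 1421 CPM against 1536, 1529 and 1539 CPM, higher by 0.10 log2 (SE 0.024, edgeR adjusted p = 0.00221). Timp1, the inducible inhibitor, was at 126.5, 121.2 and 122.3 CPM against 121.9, 120.6 and 117.0 CPM. These ranges overlapped, and the difference of -0.04 log2 (95% interval -0.13 to 0.04) did not pass the test (edgeR adjusted p = 0.483).

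The siCop1 difference was measured in 3 further settings, with KL001, with Dexa and with both. With Dexa in DMSO, 6 of the 8 genes other than Mmp10 were higher and 2 lower, where 31.1% of all genes changed, 14.4% upward and 16.7% downward. With KL001 and Dexa together the counts were again 6 and 2 (30.1% of all genes, 13.7% upward and 16.3% downward). With KL001 alone, 4 were higher and 1 lower (32.7%, 14.5% upward and 18.2% downward). Mmp3 was higher in all 4 settings, by 1.98, 1.30 with KL001, 2.12 with Dexa and 1.78 log2 with both. Mmp9 (0.99, 1.10, 1.55 and 0.79 log2), Mmp14 (0.40, 0.34, 0.41 and 0.39) and Timp2 (0.10, 0.08, 0.09 and 0.08) were also higher in all 4, in the same order of settings. The Mmp9 call with both depended on single libraries, as given below. Timp3 was lower in all 4, by -0.74, -0.70, -0.92 and -0.97 log2. Timp1 was lower in both settings with Dexa (-0.13 and -0.15 log2), while its differences without Dexa, -0.04 and -0.09, did not pass.

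Some of the small differences of Timp1, Timp2 and Mmp2 with siCop1 depended on single libraries. The Mmp2 calls in DMSO, without and with Dexa, and the Timp2 call in DMSO without Dexa were kept under every alternative run (highest adjusted p 0.0277, 0.0132 and 0.0152). The Timp1 call with Dexa in DMSO was lost without replicate 1 of the siCTRL group or replicate 3 of the siCop1 group (edgeR adjusted p = 0.0552 and 0.0602), and that with KL001 and Dexa without replicate 3 of the siCTRL group (0.0779). In KL001 alone, Timp1 was called without siCTRL replicate 1 (log2 -0.12, edgeR adjusted p = 0.0306). The Timp2 call in KL001 was lost without siCTRL replicate 2 or 3 or siCop1 replicate 1 or 3 (edgeR adjusted p from 0.0538 to 0.071), and that in KL001 with Dexa without siCTRL replicate 2 or siCop1 replicate 1 or 2 (0.0663 to 0.112). Mmp2 in KL001 with Dexa was not called without siCTRL replicate 2 or 3 (edgeR adjusted p = 0.0924 and 0.0645).

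In KL001 without Dexa, the scarce collagenase and stromelysin-2 did not separate by siRNA. Mmp13 was at 0.699, 0.288 and 1.35 CPM in siCTRL KL001 and at 0.936, 0.965 and 1.27 CPM in siCop1 KL001, and Mmp10 was read 7, 6 and 7 times against 11, 4 and 16 times. The groups overlapped for both genes, with 0.43 log2 (95% interval -0.31 to 1.16, edgeR adjusted p = 0.396) for Mmp13 and 0.59 log2 (-0.34 to 1.51, edgeR adjusted p = 0.349) for Mmp10. These intervals are wide. Without siCTRL KL001 replicate 3, which had the highest Mmp13 level of its group, the Mmp13 difference was 1.09 log2 and passed (edgeR adjusted p = 0.0332). Mmp2 differed by 0.05 log2 there and did not pass (edgeR adjusted p = 0.176).

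Some siCop1 calls with KL001 and Dexa rested on few counts. Mmp10 was read 1, 0 and 1 times in siCTRL KL001 with Dexa and 3, 4 and 10 times in siCop1 KL001 with Dexa, a ratio of 8.7 with a counting interval from 2.06 to 77.6. Its fitted difference, again a description, was 2.36 log2 without replicate 3 of the siCop1 group. Mmp13, at 0.160, 0.176 and 0.0412 CPM against 0.259, 0.619 and 0.744 CPM, was 2.11 log2 higher (edgeR adjusted p = 0.00729), and its call was lost without replicate 3 of the siCTRL group (log2 1.68, edgeR adjusted p = 0.0509). Mmp9 overlapped between these groups, and its difference was 0.79 log2 (edgeR adjusted p = 0.0353). That call was lost without replicate 1 of the siCTRL group (edgeR adjusted p = 0.0935) or replicate 1 or 2 of the siCop1 group (0.189 and 0.0699). The Mmp9 difference was 0.51 log2 and also not called without siCTRL KL001 with Dexa replicate 3 (edgeR adjusted p = 0.23). Without that library, 5 of the 9 genes, Mmp10 included, were called in place of 9, and with replicate 2 of the 3 siCTRL groups other than siCTRL DMSO left out, 7 were.

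**Figure D2:**
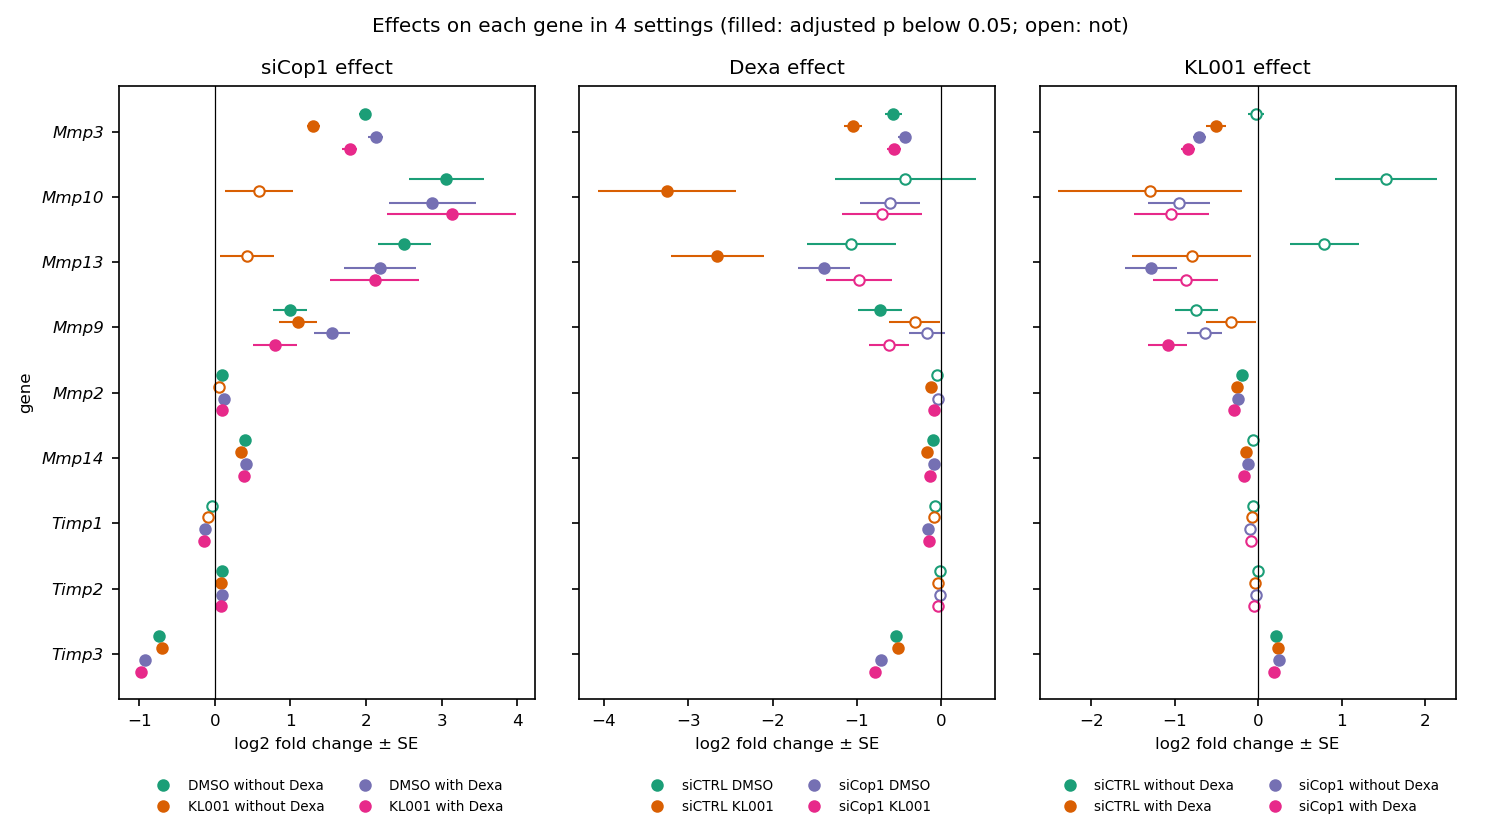
Log2 fold changes with standard errors for each of the 9 genes: siCop1 against siCTRL, Dexa against none and KL001 against DMSO, each in 4 settings (colours), filled where the adjusted p was below 0.05. Mmp3 is filled in 4 of 4 siCop1 settings on the right, Timp3 in 4 of 4 on the left, and no gene is filled on the right of 0 in the Dexa panel.

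The second comparison asks what Dexa does to the same genes. Comparisons in a common setting share their libraries (siCTRL DMSO without Dexa is the control of siCop1, Dexa and KL001), so their values are set side by side and not compared with one another. In siCTRL DMSO, Mmp3, Mmp9, Mmp14 and Timp3 were lower with Dexa and none of the 9 was higher (0 at an adjusted p below 0.05 in edgeR, 0 at an unadjusted p below 0.05, and 0 in DESeq2). In that comparison 26.8% of all genes changed, 12.7% upward and 14.1% downward. The median log2 difference was -0.43 for the 9 genes, which is the value of the scarce Mmp10, -0.315 without Mmp10, and -0.01 for all genes. Mmp3 went from the 24.7 CPM mean of the reference group to 17.2, 16.8 and 15.9 CPM, with no overlap (log2 -0.57, SE 0.10, edgeR adjusted p = 0.000173). Timp3 went to 402.0, 462.2 and 469.3 CPM, also with no overlap (log2 -0.54, SE 0.049, edgeR adjusted p = 3.07e-09). A protease and the matrix-bound inhibitor thus fell by similar log2 amounts.

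The other calls in siCTRL DMSO were weaker. Mmp14 went to 807.1, 808.1 and 834.3 CPM, below the reference libraries by 0.10 log2 (edgeR adjusted p = 0.00644). Mmp9 was at 0.856, 1.27 and 0.877 CPM with Dexa, overlapping the reference libraries (log2 -0.73, SE 0.26, edgeR adjusted p = 0.0381). Leaving out replicate 1 or replicate 3 of either group ended the Mmp9 call (edgeR adjusted p between 0.118 and 0.16), and leaving out siCTRL DMSO replicate 2, or replicate 1 or 2 of the Dexa group, ended the Mmp14 call (0.0535 to 0.0766). Same-numbered libraries deviated together in this comparison, and with the replicate number as a block in a fit on only these groups, Mmp2 was also called (log2 -0.05, edgeR adjusted p = 0.0388). Mmp13 was at 0.234, 0.132 and 0.279 CPM with Dexa, overlapping the reference, and its -1.07 log2 did not pass (95% interval -2.16 to 0.03, edgeR adjusted p = 0.152).

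With KL001 in siCTRL cells, 6 of the 9 genes were lower with Dexa and none was higher (26.8% of all genes changed, 12.7% upward and 14% downward), with 0 higher at an unadjusted p below 0.05 and 0 higher in DESeq2. Mmp10 was tested only because of its siCop1 libraries, and without it 5 of 8 were lower. In a fit on only the groups compared, Mmp10 and Mmp13 did not pass the filter, and 4 genes were called. Mmp3 was at 28.6, 18.1 and 26.0 CPM in siCTRL KL001 and at 12.9, 11.5 and 10.9 CPM with Dexa, lower by 1.05 log2 (SE 0.11, edgeR adjusted p = 1.19e-07). Mmp13 was at 0.160, 0.176 and 0.0412 CPM with Dexa, below the range of siCTRL KL001 by 2.66 log2 (SE 0.55, edgeR adjusted p = 0.000362), or by 2.0 log2 without siCTRL KL001 replicate 3 and by 3.33 log2 without replicate 2 of the 3 siCTRL groups other than siCTRL DMSO. Mmp10 was read 2 times in all with Dexa and 20 times without, a ratio of 0.105 with a counting interval from 0.0119 to 0.433 (edgeR adjusted p = 0.00291). Mmp2 (-0.13 log2), Mmp14 (-0.18 log2) and Timp3 (-0.51 log2) were lower as well. The scarce Mmp10 and Mmp13 had larger log2 differences here than the abundant Mmp2 and Mmp14, with far wider intervals.

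In the siCop1 cells, 5 genes were lower with Dexa in DMSO (23.7% of all genes changed, 12% upward and 11.6% downward) and 5 in KL001 (24.5%, 12.1% upward and 12.4% downward). None was higher in either, with 0 higher at an unadjusted p below 0.05 and 0 higher in DESeq2. Mmp3 went from 99.9, 96.1 and 98.1 CPM to 71.9, 75.8 and 70.1 CPM in DMSO, lower by 0.43 log2 (SE 0.076, edgeR adjusted p = 0.000129). It thus remained above every siCTRL library when Dexa was present. In KL001 it went from 59.1, 59.5 and 61.2 CPM to 41.4, 40.8 and 39.3 CPM, lower by 0.57 log2 (SE 0.083, edgeR adjusted p = 1.48e-05). Timp3 went from 382.4, 387.0 and 389.1 CPM to 228.0, 235.0 and 240.4 CPM in DMSO (log2 -0.72, SE 0.050, edgeR adjusted p = 2.31e-11). In KL001 it went from 468.6, 466.3 and 440.3 CPM to 263.0, 262.2 and 272.7 CPM (log2 -0.79, SE 0.050, edgeR adjusted p = 3.68e-12). None of these 4 pairs of groups overlapped.

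The remaining siCop1 calls with Dexa were Mmp14 and Timp1 in both settings, Mmp13 in DMSO and Mmp2 in KL001. Mmp13 was at 1.133, 0.887 and 0.942 CPM with Dexa in siCop1 DMSO, below the 2.57 to 2.60 CPM without it, by 1.39 log2 (SE 0.31, edgeR adjusted p = 0.00109). In siCop1 KL001 its difference was -0.97 log2 and did not pass (95% interval -1.77 to -0.18, edgeR adjusted p = 0.0698), although the groups did not overlap. Timp1 was lower by 0.16 log2 in DMSO and 0.15 in KL001, whereas its differences in the siCTRL cells, -0.07 and -0.09, did not pass. The latter, in KL001, was called without siCTRL KL001 replicate 1 or siCTRL KL001 with Dexa replicate 3 (edgeR adjusted p = 0.0289 and 0.0474). The Mmp14 call in siCop1 DMSO was lost without replicate 3 of either group (edgeR adjusted p = 0.0968 and 0.0628). The Mmp2 call in siCop1 KL001 was lost without replicate 1 or 3 of the group without Dexa or replicate 2 or 3 of that with it (edgeR adjusted p from 0.0599 to 0.14). Timp2 did not pass in any of the 4 Dexa comparisons, with intervals that lay between -0.10 and 0.04 log2. Among the 4 settings, Mmp10 was called in siCTRL KL001 and Mmp9 in siCTRL DMSO. In siCop1 KL001, Mmp9 did not pass (log2 -0.62, edgeR adjusted p = 0.0638) and was called without replicate 1 of the Dexa group (log2 -0.81, edgeR adjusted p = 0.0344).

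The third comparison asks what KL001 does. It changed fewer genes than the other factors, 6.73% of all genes in siCTRL without Dexa (3.22% upward and 3.51% downward), where Timp3 was higher and Mmp2 lower. Timp3 was at 776.8, 695.7 and 758.2 CPM with KL001, above the 600.4, 670.0 and 661.3 CPM in DMSO, by 0.21 log2 (SE 0.048, edgeR adjusted p = 0.00816). The call was lost without siCTRL DMSO replicate 1, the lowest of its group (log2 0.16, edgeR adjusted p = 0.0527). Mmp2 was at 622.7, 612.6 and 624.2 CPM, below all DMSO libraries by 0.19 log2 (SE 0.027, edgeR adjusted p = 1.6e-05). Mmp3 did not differ in its mean (log2 -0.03, 95% interval -0.23 to 0.18, edgeR adjusted p = 0.919), but its 3 KL001 libraries, at 28.6, 18.1 and 26.0 CPM, spread over a wider range than any other group relative to its mean. The lowest of them is the library with the raised heart-muscle markers.

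Timp3 was higher and Mmp2 lower with KL001 in all 4 settings. Timp3 rose by 0.21, 0.23 with Dexa, 0.25 with siCop1 and 0.18 log2 with both, and the last of these calls was lost when any of the 6 libraries compared was left out (edgeR adjusted p between 0.0533 and 0.148). Mmp2 fell by 0.19, 0.26, 0.24 and 0.29 log2 in the same order. Mmp14 fell in the 3 settings with Dexa, siCop1 or both (-0.15, -0.13 and -0.18 log2), and its -0.07 log2 in siCTRL without Dexa did not pass (edgeR adjusted p = 0.118). Timp1 and Timp2 did not pass in any of the 4, where the intervals reached from -0.19 to 0.02 log2 for Timp1 and from -0.10 to 0.04 log2 for Timp2. Timp3 thus moved opposite to Mmp2 under KL001.

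In the cells with siCop1, KL001 was accompanied by lower Mmp3. Without Dexa its level was 59.1, 59.5 and 61.2 CPM with KL001 against 99.9, 96.1 and 98.1 CPM in DMSO, lower by 0.71 log2 (SE 0.077, edgeR adjusted p = 2.44e-06). With Dexa it was 41.4, 40.8 and 39.3 CPM against 71.9, 75.8 and 70.1 CPM, lower by 0.84 log2 (SE 0.082, edgeR adjusted p = 4.65e-07). In the siCTRL cells with Dexa it was 12.9, 11.5 and 10.9 CPM against 17.2, 16.8 and 15.9 CPM, lower by 0.50 log2 (SE 0.12, edgeR adjusted p = 0.00786). KL001 thus went with lower Mmp3 in 3 of 4 settings, with no overlap between groups in any of the 3.

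Mmp13 was called lower with KL001 in siCop1 without Dexa, at 0.936, 0.965 and 1.27 CPM against 2.57, 2.60 and 2.58 CPM (log2 -1.29, SE 0.31, edgeR adjusted p = 0.0108). That call was lost without replicate 1 or replicate 2 of the KL001 group (edgeR adjusted p = 0.0681 and 0.0651). Mmp9 was called lower in siCop1 with Dexa, at 1.73, 1.36 and 1.02 CPM against 3.24, 2.85 and 2.67 CPM (log2 -1.09, SE 0.23, edgeR adjusted p = 0.00323). In siCTRL without Dexa, Mmp9 did not pass (log2 -0.74, edgeR adjusted p = 0.0906) and was called without siCTRL DMSO replicate 2 or siCTRL KL001 replicate 1 (0.0457 and 0.0474). Mmp10 did not pass in any of the 4 KL001 comparisons. In siCTRL without Dexa it was read 20 times with KL001 and 7 times in DMSO, a ratio of 2.88 (counting interval 1.17 to 8.07), and in siCop1 without Dexa 31 and 59 times, a ratio of 0.519 (0.325 to 0.815). By count, 1 gene was higher and 3 lower in siCTRL with Dexa (10.6% of all genes changed, 4.98% upward and 5.58% downward). In siCop1, 1 was higher and 4 lower both without Dexa (4.09%, 1.77% upward and 2.32% downward) and with it (5.46%, 2.5% upward and 2.97% downward).

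Whether an effect differs between settings was tested by 6 interaction terms. They were siCop1 by Dexa in DMSO and in KL001, siCop1 by KL001 without and with Dexa, and KL001 by Dexa in siCTRL and in siCop1. No term of the 9 genes passed in edgeR (0 in each of the 6), where 0.67%, 0.562%, 0%, 0.0677%, 0% and 0.0677% of all genes passed. Upward terms made up 0.291%, 0.264%, 0%, 0.0338%, 0% and 0.0474%, and downward terms 0.379%, 0.298%, 0%, 0.0338%, 0% and 0.0203%. At an unadjusted p below 0.05 there were 1, 4, 3, 1, 3 and 0 of the 9, and DESeq2 called 0, 2, 1, 0, 0 and 0. In the siCop1 by KL001 terms without Dexa, edgeR called 0 of 14772 genes, with 982 at an unadjusted p below 0.05 and 15 called by DESeq2. For KL001 by Dexa in siCTRL it called 0, with 888 at an unadjusted p below 0.05 and 3 called by DESeq2. Calls of a gene in some settings and not in others, as for Mmp10, Mmp13, Mmp9 and Timp1 above, are therefore not shown to be differences between those settings.

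The term nearest to the threshold was that of Mmp3 for siCop1 by KL001 without Dexa. The siCop1 difference was 3.96-fold in DMSO and 2.47-fold in KL001, a term of -0.68 log2 (SE 0.12, 95% interval -0.94 to -0.42, edgeR adjusted p = 0.0608). DESeq2 called it (log2 -0.68, adjusted p = 0.000294). Without siCTRL KL001 replicate 2, the library with 18.1 CPM of Mmp3 and raised heart-muscle markers, the term was -0.85 log2 and passed (edgeR adjusted p = 8.76e-09), as did that of Mmp13 (-2.46 log2, edgeR adjusted p = 0.0266, against -2.08 and 0.248 with it). Without that library, Mmp3 also passed for siCop1 by Dexa in KL001 (0.65 log2, edgeR adjusted p = 6.28e-06, against 0.48 and 0.204) and for KL001 by Dexa in siCTRL (-0.64 log2, 0.000626, against -0.47 and 0.71). Over all 18 alternatives the Mmp3 term lay between -0.85 and -0.55 log2, with adjusted p from 2.29e-15 to 0.503. Next came Timp3 for siCop1 by Dexa in KL001, where Dexa went with -0.51 log2 in siCTRL and -0.79 log2 in siCop1. Its term was -0.28 log2 (SE 0.069, edgeR adjusted p = 0.086), and over the alternatives it lay between -0.31 and -0.23 log2 with adjusted p from 4.89e-06 to 0.216. The Timp3 term for siCop1 by Dexa in DMSO, -0.19 log2 (edgeR adjusted p = 0.458), was -0.27 log2 and passed without siCTRL DMSO with Dexa replicate 1 (edgeR adjusted p = 0.00917).

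Ordered by group mean, Mmp3 was highest in siCop1 DMSO, followed by siCop1 DMSO with Dexa, siCop1 KL001 and siCop1 KL001 with Dexa (98.0, 72.6, 60.0 and 40.5 CPM). All 4 were above siCTRL DMSO (24.7), siCTRL KL001 (24.2), siCTRL DMSO with Dexa (16.7) and siCTRL KL001 with Dexa (11.8). Only siCTRL DMSO and siCTRL KL001 overlapped among neighbours, and the highest group mean was 8.34 times the lowest. Mmp14 had the same order within a span of 1.56-fold, and its only overlapping neighbours were siCTRL KL001 (830.8 CPM) and siCTRL DMSO with Dexa (816.5 CPM). In Mmp13 and Mmp10, siCop1 DMSO stood apart on top and every further pair of neighbours overlapped. Mmp13 spanned 20.6-fold. Mmp9 spanned 4.11-fold, and its only neighbours apart were siCop1 DMSO with Dexa and siCop1 KL001.

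Mmp2 followed another order. Its 4 DMSO groups (758.4, 739.6, 707.8 and 680.5 CPM) were all above its 4 KL001 groups (641.2, 619.9, 605.7 and 568.4 CPM), within a span of 1.33-fold. Timp3 ran from siCTRL KL001 (743.6 CPM) and siCTRL DMSO (643.9) through siCTRL KL001 with Dexa (522.0) to siCop1 KL001 with Dexa (266.0) and siCop1 DMSO with Dexa (234.5), a span of 3.17-fold. Its only overlapping neighbours were siCop1 KL001 (458.4 CPM) and siCTRL DMSO with Dexa (444.5). Timp1 and Timp2 spanned 1.23-fold and 1.11-fold. In Timp1 the lowest group, siCop1 KL001 with Dexa at 99.74, 99.96 and 101.8 CPM, stood apart from its neighbour.

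**Figure D3:**
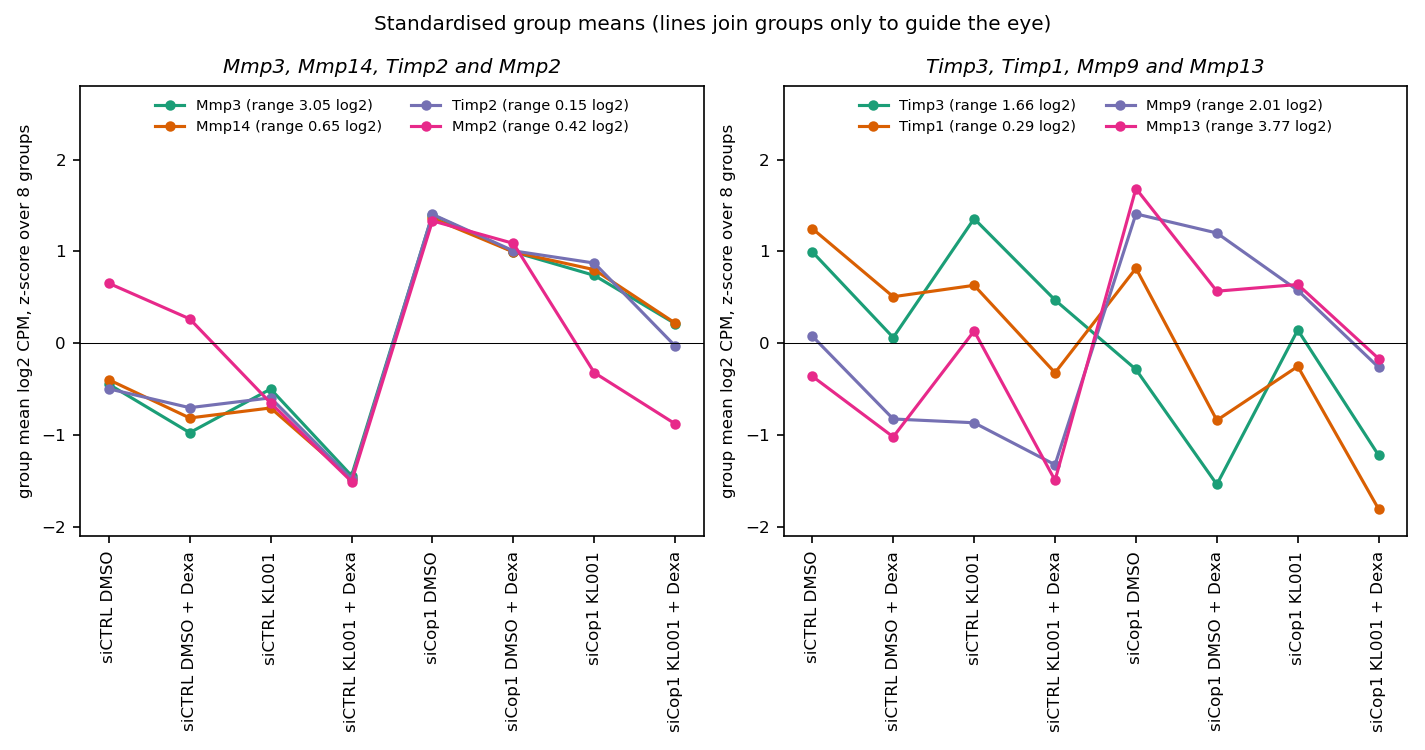
Group means of log2 CPM, standardised over the 8 groups (z-scores, vertical axis) for 8 of the 9 genes, with the unstandardised log2 range of each in the legend. Mmp3, Mmp14 and Timp2 run together although their ranges are 3.05, 0.65 and 0.15 log2, Mmp2 drops in the KL001 groups, and Timp3 is highest in siCTRL KL001.

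Likeness was described by Pearson's r of the 8 group means of log2 CPM among genes of at least 1 CPM, with no test, since the 8 points share libraries and a few contrasts set the value. The 3 genes most like Mmp3 among 11607 were Mmp14 (r = 0.995), Timp2 (0.988) and Zfp146 (0.986). Mmp14 in turn was nearest to Zfp146 (0.996), ahead of Mmp3 (0.995) and Timp2 (0.993). Timp2, with a range of only 0.148 log2, was nearest to Mmp14 (0.993), Mmp3 (0.988) and Zfp146 (0.986). For Timp3 the nearest were Stbd1 (0.995), Rnd1 (0.994) and Ccdc34 (0.99), and for Timp1 they were Rab3d (0.992), Klhl23 (0.986) and Gper1 (0.978). Mmp13 was nearest to Atxn7l2 (0.985), Mmp10 to Arl6ip5 (0.981), Mmp9 to Pcdhb9 (0.981) and Mmp2 to Alkbh6 (0.983). Between members, Mmp3 had r = 0.941 with Mmp13, 0.947 with Mmp9, 0.637 with Mmp2, -0.167 with Timp1 and -0.562 with Timp3.

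The rest of the family did not follow as a block. Counts for this list and the lists below are set beside shares over all genes, with no set test. Those shares were 12.8% higher and 16.6% lower with siCop1 in DMSO without Dexa. They were 12.7% and 14.1% with Dexa in siCTRL DMSO, and 3.22% and 3.51% with KL001 in siCTRL without Dexa. Of 18 other MMP and TIMP genes, 9 passed the filter, and with siCop1 in DMSO without Dexa 2 were higher and 3 lower (median log2 -0.21, all genes -0.01). The lower ones were Mmp23 (-0.49 log2), Mmp28 (-0.47) and the membrane-type Mmp15 (-0.39). With Dexa in siCTRL DMSO, 2 were higher and 3 lower, among them Mmp17 (0.72 log2) and Mmp19 (0.55), which were higher, and Mmp16 (-0.55), which was lower. With KL001 in siCTRL without Dexa, 2 were lower, Mmp16 (-0.26 log2) and Mmp15 (-0.20), and the other 7 did not pass.

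Genes that activate, inhibit or clear MMPs were also split. Of 14 tested, 5 were higher and 3 lower with siCop1 in DMSO without Dexa. Reck, a membrane-anchored inhibitor of MMPs, was at 8.86 CPM against 18.8 CPM, lower by 1.08 log2 (SE 0.069, edgeR adjusted p = 3.46e-13). The proprotein convertase gene Pcsk6 was lower by 0.86 log2, and the thrombospondin gene Thbs2 was higher by 0.77 log2. Reck and Timp3, both inhibitors, were thus lower while Timp2 was higher. With Dexa in siCTRL DMSO, 2 were higher and 5 lower, and the lower ones included Thbs1 (-1.03 log2), the plasminogen activator Plat (-0.82) and the urokinase receptor Plaur (-0.52). With KL001 in siCTRL without Dexa, 3 were lower, namely Thbs1 (-0.48 log2), Plat (-0.24) and Reck (-0.23).

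AP-1 subunit transcripts moved in both directions with siCop1 (3 higher and 3 lower of 9 tested in DMSO without Dexa, median log2 -0.08). In that comparison 12.8% of all genes were higher and 16.6% lower. AP-1 binding and activity were not measured, and a link between these transcripts and the 9 genes was not tested. Fosl1 was at 12.5, 12.1 and 11.1 CPM in siCTRL DMSO and at 30.2, 29.7 and 29.3 CPM in siCop1 DMSO (log2 1.32, SE 0.063, edgeR adjusted p = 5.35e-16). Jun was at 86.9, 79.6 and 83.1 CPM against 121.3, 125.0 and 122.9 CPM (log2 0.56, SE 0.037, edgeR adjusted p = 6.74e-13), and Atf3 was lower by 0.65 log2. Neither Fosl1 nor Jun overlapped between the groups. With Dexa in siCTRL DMSO, 4 of the 9 were lower and the other 5 did not pass, the lower ones including Fos (-0.67 log2), Atf3 (-0.38) and Jun (-0.30). With KL001 in siCTRL without Dexa, Atf3 alone changed, upward by 0.24 log2.

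With KL001 in siCop1 without Dexa, where 4.09% of all genes changed, Atf3 alone of the 9 AP-1 subunits did, upward by 0.28 log2 (edgeR adjusted p = 0.00707). Fosl1 was at 30.9, 29.0 and 31.7 CPM, overlapping the DMSO libraries (log2 0.04, edgeR adjusted p = 0.848). Jun was at 119.3, 115.3 and 117.0 CPM, below the DMSO libraries, and its difference of -0.07 log2 did not pass (edgeR adjusted p = 0.385). With KL001 in siCop1 with Dexa, Jun was lower by 0.24 log2 with no overlap (mean 88.7 against 105 CPM, SE 0.038, edgeR adjusted p = 6.94e-05). Atf3 was higher there by 0.38 log2 (edgeR adjusted p = 0.000571), and no other AP-1 subunit passed (5.46% of all genes changed). Fosl1 overlapped there, and its -0.09 log2 did not pass (edgeR adjusted p = 0.511). The siCop1 by KL001 term without Dexa was -0.18 log2 for Fosl1 (SE 0.089, edgeR adjusted p = 0.75) and -0.13 log2 for Jun (SE 0.053, edgeR adjusted p = 0.677). Neither term passed, which does not show that the settings were alike.

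ETS factors had 3 higher and 3 lower of 9 with siCop1 in DMSO without Dexa (12.8% and 16.6% of all genes). Etv5 (-0.63 log2) and Ets1 (-0.38) were among the lower ones and Elk3 (0.32) among the higher. With Dexa in siCTRL DMSO, 3 were lower and the other 6 did not pass, with Etv5 at -1.14 and Etv4 at -0.59 log2 among the lower ones. With KL001 in siCTRL without Dexa, Ets2 alone changed (0.15 log2). Among 15 matrix substrates of MMPs, 3 were higher and 9 lower with siCop1 in DMSO without Dexa, where osteopontin, Spp1 (0.68 log2), and versican, Vcan (0.45), were higher and elastin, Eln (-0.64), was lower. With Dexa in siCTRL DMSO, 5 were higher and 3 lower. With KL001 in siCTRL without Dexa, 7 were lower, among them Eln (-0.56 log2) and the collagens Col3a1 (-0.41) and Col1a2 (-0.27). Of 8 glucocorticoid response genes, 7 were higher and 1 lower with Dexa in all 4 settings.

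**Figure D4:**
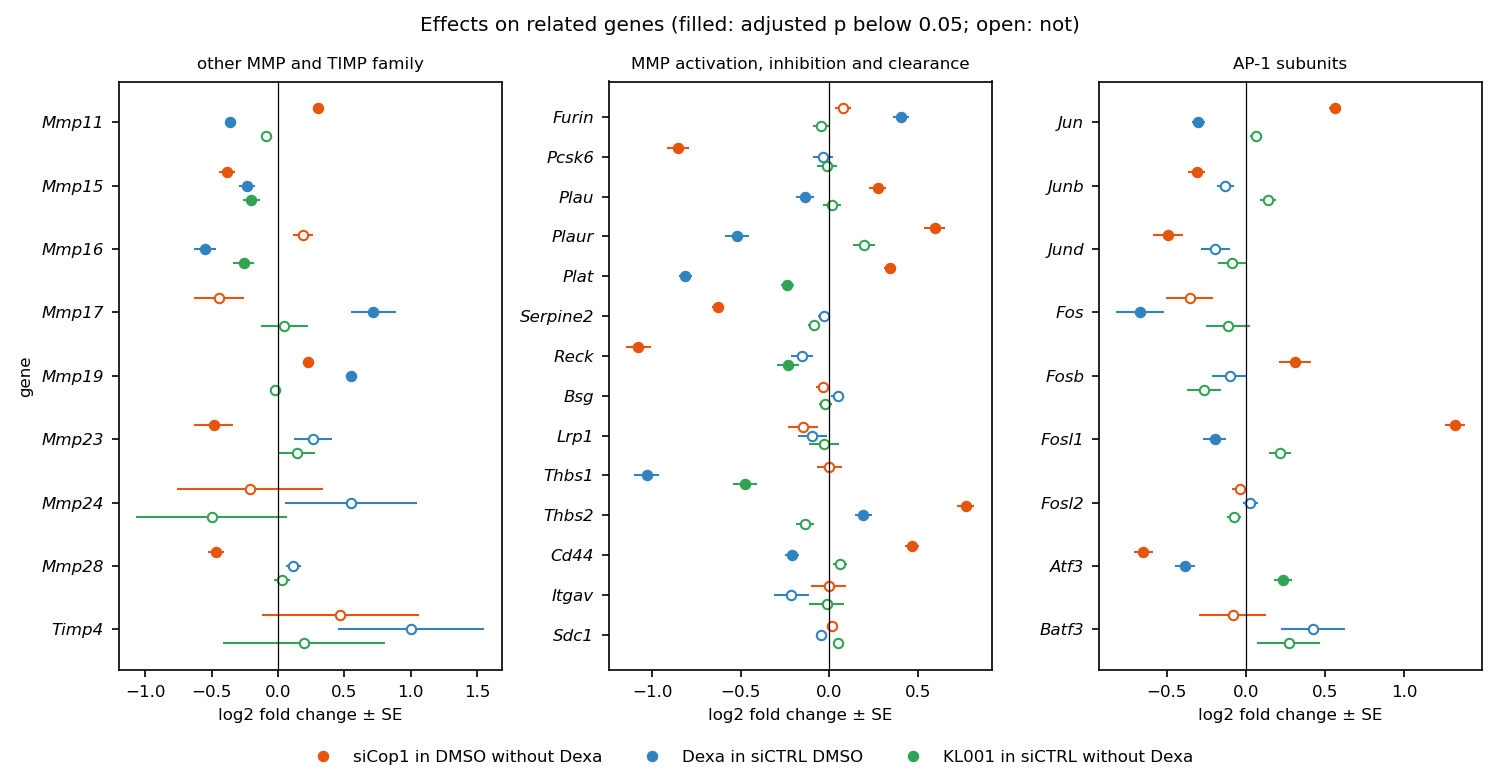
Log2 fold changes with standard errors of the other MMP and TIMP genes, of the genes that activate, inhibit or clear MMPs and of AP-1 subunits, in 3 comparisons (colours), filled where the adjusted p was below 0.05. Fosl1 (1.32 log2) and Reck (-1.08 log2) stand farthest from 0 among the siCop1 points.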

How the data were processed

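Stranded mRNA libraries of 24 MEF samples were read as single reads on pooled lanes, per the labels' protocols. The authors deposited raw read counts per gene symbol and a normalized table (signal), in which 100% of values equal the count divided by a size factor of 0.862 to 1.12 per library, within 0.011. Per the submitters' processing notes, bcl2fastq 1.8.4, STAR 2.4.5a, featureCounts of Subread 1.4.6-p3, DESeq2 and Picard 1.126 were used with GRCm38 and mm10. Annotation, strand setting and the treatment of shared reads were not given in the sources used here. Only the counts were tested, and 0 columns were left unused. Blank or summary rows were not present.

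Genes passing filterByExpr (minimum count 10, minimum total 15) were 14772 of 47480. Counts were scaled with TMM and fitted in R 4.3.3 with edgeR 4.0.16 (quasi-likelihood, robust) over all 24 libraries with 1 mean per group, giving 12 simple effects and 6 interactions, two-sided, with Benjamini-Hochberg adjustment over all genes within each comparison. Intervals of log2 differences use the fit's t quantiles. Ratios of few counts have exact 95% conditional binomial intervals, which cover counting error only. CPM are counts divided by the TMM-scaled library size, on the usual CPM scale. The fitting code was tested on simulated data. The common biological coefficient of variation was 3.71%, and replicates differed by more than sampling noise (chi-square per degree of freedom 1.57 to 8.54), so none was counted as a copy.

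The 9 members were given by name, and they, the gene lists and the alternatives were chosen with earlier results of these data known. From each list, up to 3 changed genes with the largest difference and a mean of at least 1 CPM are named for each of 3 comparisons. A gene of the lists is not reported here and was left out of their counts. Likeness names the 3 genes with the highest r. Genes with Gm or Rik symbols or marked as pseudogenes were skipped there. Fosl1 and Jun in the KL001 groups, Atf3 with KL001 in siCop1, and the untested cluster genes, were named after their values were seen. Same-numbered libraries deviated together most for Dexa in siCTRL DMSO (r = 0.606, 0.284 and 0.338), so the paired fit of that comparison is given beside the unpaired one, from which its printed values come. For Dexa in siCTRL KL001, r was also positive but smaller (0.279, 0.0756 and 0.117). This rests on the data, since the labels give no shared culture or day. Alternatives were RLE scaling, no filter, DESeq2 1.42.0, the replicate block, only the groups compared, and each library left out. A paired fit on 2 groups and the joint omission of 3 libraries were added after seeing the data.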

Additional observations from a re-analysis of the deposited data

How the results depend on the processing

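Of 108 differences of the 9 genes in the 12 simple comparisons, 67 were called, 51 of them under every alternative that gave an adjusted p, and 16 lost the call under at least 1. None reversed among the called, 4 uncalled ones changed sign, and 9 uncalled ones were called under at least 1 alternative. With only the groups compared, 2 genes in place of 4 were called for Dexa in siCTRL DMSO, and 1 in place of 2 for KL001 in siCTRL without Dexa. That fit also called 4 in place of 6 for Dexa in siCTRL KL001 and 7 in place of 9 for siCop1 in KL001 with Dexa. In both, the calls lost were Mmp10 and Mmp13, which did not pass the filter on those groups alone and were not tested. The same fit called 7 in place of 5 for Dexa in siCop1 KL001, and moved 3 further counts by 1. With replicate 2 of the 3 siCTRL groups other than siCTRL DMSO left out, 3 genes in place of 4 were called for Dexa in siCTRL DMSO, 7 in place of 5 for Dexa in siCop1 KL001, 7 in place of 9 for siCop1 in KL001 with Dexa, and 6 in place of 5 for KL001 in siCop1 without Dexa. The pair of comparisons within siCop1 hold none of the libraries left out, but share the fit's estimate of the spread. Counts here include Mmp10. Over the refits without each library, the counts ran from 2 to 3 for Dexa in siCTRL DMSO and from 1 to 3 for KL001 in siCTRL without Dexa. That for siCop1 in KL001 with Dexa ran from 5 to 8 (9 in the main test). Apart from the filter losses named above, the cause was not tested.

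Of the interaction terms, 0 were called in the main test and 7 of 54 under at least 1 alternative. With no filter, 1, 2, 2, 1, 1 and 0 terms were called in the order given in the report. DESeq2 called 2 for siCop1 by Dexa in KL001 (Mmp3 and Timp3) and 1 for siCop1 by KL001 without Dexa (Mmp3), and the fit on only the groups compared called 1 for siCop1 by Dexa in KL001 (Timp3). Leaving out single libraries gave between 0 and 1 for siCop1 by Dexa in DMSO, siCop1 by Dexa in KL001 and KL001 by Dexa in siCTRL, and between 0 and 2 for siCop1 by KL001 without Dexa. The joint omission of replicate 2 of the 3 siCTRL groups other than siCTRL DMSO gave 1, 2 and 1 for siCop1 by Dexa in KL001, siCop1 by KL001 without Dexa and KL001 by Dexa in siCTRL. The siCTRL DMSO libraries, which also had raised heart-muscle markers, stayed in that refit. The cause was not tested.

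With the replicate number as a block over all groups, Mmp9 was also called for Dexa in siCop1 KL001 (log2 -0.63, edgeR adjusted p = 0.0489), which made 6 genes in place of 5, and no other call changed. Sample labels share a stem across treatments within each siRNA, and whether that marks a shared culture is not stated. Over 84 same-numbered pairs, r of the deviations over 9590 genes ran from -0.649 to 0.606 with a median of 0.018, and 27 pairs exceeded 0.1. Of 24 libraries, 9 were closest to their own number. Low counts limit Mmp10, for which DESeq2 gave no adjusted p in the siCop1 comparisons other than KL001 without Dexa.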
